A study of Bos taurus with 6 samples.

Results

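Trophectoderm regulators and the endocytic adaptor DAB2 were followed in single bovine morulae. The set was a list of 9 symbols: the transcription factors CDX2, GATA2, GATA3, TFAP2A, TFAP2C and TEAD1, the co-activators YAP1 and WWTR1, and DAB2. Every row of the 6 gene tables that carried one of these symbols was taken. A row was present in all 6 tables for 7 of the 9 genes, out of 13185 genes kept in the whole series. YAP1 and TEAD1 are not analysed here. Of the 7 genes, 6 reached the level needed for the gene test, and TFAP2A did not.

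The trophectoderm is the outer epithelium of the blastocyst and the source of the fetal placenta. In the mouse, outer cells of the morula become polarised, which silences the Hippo kinases and lets YAP1 and its relative WWTR1 (also called TAZ) enter the nucleus. There they bind TEAD factors and switch on Cdx2 and Gata3. TFAP2C, an AP-2 family factor, and GATA2 act with them in the trophoblast lineage, and DAB2 is a clathrin adaptor that links cargo receptors to coated pits.

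Embryos were produced by in vitro fertilization of bovine oocytes, grown in a synthetic oviduct fluid medium with serum albumin under 5% oxygen, and collected at day 6. MAT2A-inhibited embryos received 20 µM FIDAS-5, an inhibitor of the enzyme that makes S-adenosylmethionine, between 72 h and 144 h after insemination, that is from the stage of 8 to 16 cells at day 3. Control embryos received 0.1% (v/v) DMSO, the solvent of the inhibitor, over the same time. No DMSO content is stated for the MAT2A-inhibited embryos. Each group held 3 libraries of polyA RNA, each from 1 whole embryo amplified with a low-input kit. Whether embryos of a group shared a culture is not stated, so p-values describe the variation among these 6 embryos, which may be partly technical. Levels are in FPKM, fragments normalised to transcript length and to sequencing depth, which can be set side by side between genes.

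Depth recovered from the deposited values was 46400000 to 57700000 fragments in MAT2A-inhibited morulae and 53400000 to 59900000 in controls. Of 7 early embryo markers 4 had a row, and all 4 were above 1 FPKM in every library. Their summed level was 760.2 to 998.0 FPKM in MAT2A-inhibited morulae and 1139.8 to 1257.3 FPKM in controls, without overlap. The pluripotency factor POU5F1 overlapped between groups, at 254.8 to 376.4 FPKM in MAT2A-inhibited morulae and 312.3 to 431.0 FPKM in controls. The others did not: NANOG (1.16 to 1.88 against 2.54 to 20.3 FPKM) and DPPA3 (453.5 to 574.5 against 660.9 to 881.3 FPKM) were lower in MAT2A-inhibited morulae, and SOX2 (45.2 to 50.8 against 27.6 to 41.5 FPKM) was higher. Their part in the members' values was not tested. All 13 cumulus or granulosa cell markers had a row, and PTX3 was at 0 in every library. Their summed level was 46.5 to 84.0 FPKM in MAT2A-inhibited morulae and 62.1 to 129.9 FPKM in controls, most of it from SERPINE2. Apart from SERPINE2, STAR stood at 1.16 to 2.19 FPKM over the 6 embryos. FSHR reached 2.37 FPKM in MAT2A-inhibited morula 3, CYP19A1 1.34 FPKM in control 2 and TNFAIP6 1.42 FPKM in control 3. COL1A2 stood at 4.29 and 4.06 FPKM in controls 1 and 3, and at 1.06 FPKM in MAT2A-inhibited morula 1. DCN and LUM, stromal markers on that list, stood at 11.0 and 4.81 FPKM in control 2, which also held the lowest GATA2 and GATA3. Its part in those low values was not tested. Sperm markers summed to 5.13 to 11.5 FPKM in MAT2A-inhibited morulae and 2.53 to 4.79 FPKM in controls, without overlap. Taken singly, PRM1, TNP1 and TNP2 each overlapped between groups, and ODF1 and AKAP4 were at 0 in every library. Blood markers summed to 81.9 to 111.0 FPKM in MAT2A-inhibited morulae and 66.5 to 133.8 FPKM in controls, most of it from HBA. Transcripts of the Y-linked genes on the marker list summed to 57.3 and 116.4 FPKM in MAT2A-inhibited morulae 2 and 3, to 0.0880 FPKM in MAT2A-inhibited morula 1, and to at most 0.193 FPKM in controls. Embryo sex thus ran partly with the group. Each library is a whole embryo, so fewer cells of a type and less RNA per cell cannot be told apart.

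DAB2, TFAP2C and WWTR1 were abundant transcripts, GATA3 and GATA2 were intermediate, CDX2 was low and TFAP2A was barely detected. Averaged over the 6 embryos, DAB2 stood at 109.9 ± 37.8 FPKM, TFAP2C at 88.3 ± 10.1 FPKM and WWTR1 at 53.2 ± 12.3 FPKM (SD, n = 6). GATA3 averaged 28.3 ± 28.4 FPKM, GATA2 8.56 ± 4.02 FPKM, CDX2 1.54 ± 1.10 FPKM and TFAP2A 0.131 ± 0.133 FPKM (SD, n = 6). Within the single embryos, DAB2 ranked between 835 and 1414 of the 13185 genes, TFAP2C between 1120 and 1327, and CDX2 between 5975 and 8292.

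Some neighbours in this order could be told apart and others could not. TFAP2C lay above WWTR1 in 6 of 6 embryos with no overlap of their ranges. DAB2 lay above TFAP2C in only 3 of 6 embryos, so their order is not resolved. WWTR1 lay above GATA3 in 4 of 6 embryos, the exceptions being MAT2A-inhibited morula 3 and control 3. GATA3 lay above GATA2, and GATA2 above CDX2, in each of the 6 embryos, although their ranges overlapped across embryos.

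**Figure D1:**
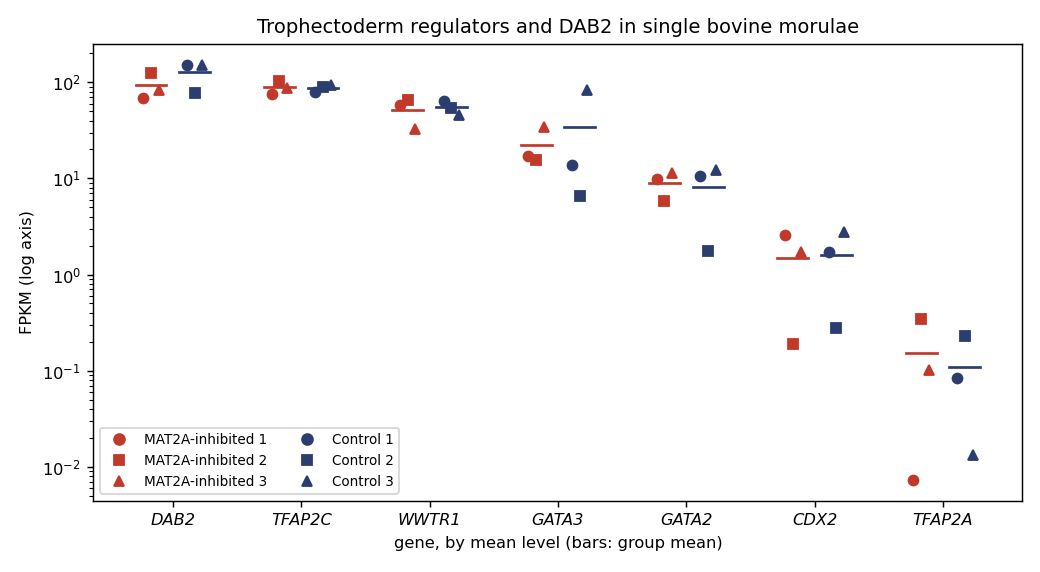
FPKM of the 7 genes on a log axis, 1 point per embryo (MAT2A-inhibited red, control blue, the marker shape giving the replicate number) and a bar for the group mean. Levels run from DAB2 at 69.3 to 152.2 FPKM down to TFAP2A at 0.00729 to 0.346 FPKM, and the 2 groups overlap for every gene.

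CDX2 is the homeobox factor that maintains trophectoderm identity in the mouse. Its single locus lies on chromosome 12 of bosTau8, chr12:32317634-32323433 at its widest. CDX2 stood at 2.56, 0.188 and 1.72 FPKM in MAT2A-inhibited embryos 1 to 3, against 1.73, 0.276 and 2.77 FPKM in controls 1 to 3. Each group held 1 embryo near 0.2 to 0.3 FPKM and 2 embryos between 1.7 and 2.8 FPKM. The means were 1.49 ± 1.20 against 1.59 ± 1.25 FPKM (SD, n = 3 each, exact permutation p = 0.7). In the 2 low embryos, MAT2A-inhibited morula 2 and control 2, the assembled locus ended at 32322821, while in the other 4 it ran on to between 32323411 and 32323433. In control 2 a separate unannotated locus, chr12:32322944-32323434, lay over that stretch and is not part of its CDX2 value. None was listed near CDX2 in MAT2A-inhibited morula 2. The part of this split in the low CDX2 of control 2 was not tested.

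GATA2, a zinc finger factor active in trophoblast cells (chr22:60016985-60024586), followed a similar order of embryos. It stood at 9.76, 5.76 and 11.4 FPKM in MAT2A-inhibited embryos 1 to 3, against 10.5, 1.74 and 12.1 FPKM in controls 1 to 3. The lowest embryo of each group was again replicate 2, and the other 4 lay between 9.76 and 12.1 FPKM. The means were 8.98 ± 2.91 against 8.14 ± 5.60 FPKM (SD, n = 3 each, exact permutation p = 0.9).

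GATA3, which in the mouse acts beside Cdx2 downstream of TEAD4 (chr13:15982359-16003470 at its widest), had the largest within-group SD of log2(FPKM + 1) among the tested members, while CDX2 had the widest range as a ratio of FPKM, 14.7 times over the 6 embryos. MAT2A-inhibited morulae held 16.99, 15.5 and 33.9 FPKM, and controls held 13.7, 6.50 and 83.4 FPKM. Control 3 was the highest of the 6 embryos and control 2 the lowest, so that the control range enclosed all MAT2A-inhibited values. The highest value was 2.19 times the lowest among MAT2A-inhibited morulae and 12.8 times the lowest among controls, with means of 22.1 ± 10.2 FPKM in MAT2A-inhibited morulae and 34.5 ± 42.5 FPKM in controls (SD, n = 3 each, exact permutation p = 1). Whether the 2 spreads differ was not tested. GATA3 exceeded GATA2 by 1.30 to 6.87 times within the embryos, with the largest ratio in control 3.

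The AP-2 factors behaved differently from the GATA factors. TFAP2C, an AP-2 factor of germ and trophoblast cells (chr13:59900952-59912715), stood at 76.1, 104.0 and 87.6 FPKM in MAT2A-inhibited morulae, against 79.4, 88.9 and 94.0 FPKM in controls. All 6 embryos lay within 1.37 times of each other, the narrowest range among the members. The means were 89.2 ± 14.01 against 87.4 ± 7.41 FPKM (SD, n = 3 each, exact permutation p = 1).

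TFAP2A, its paralogue (chr23:45480546-45499035), stood at 0.00729, 0.346 and 0.103 FPKM in MAT2A-inhibited morulae, against 0.0838, 0.230 and 0.0132 FPKM in controls. The deposited lower confidence bound was 0 in MAT2A-inhibited morula 1 and control 3, so those 2 levels are at the limit of detection. In the other 4 embryos, TFAP2C exceeded TFAP2A by 301 to 947 times. The 2 embryos with the highest TFAP2A, MAT2A-inhibited morula 2 and control 2, were the 2 with the lowest CDX2 and the lowest GATA2. TFAP2A lay above CDX2 in 1 embryo, MAT2A-inhibited morula 2. Their deposited bounds overlapped there, at 0.234 to 0.452 for TFAP2A and 0.0549 to 0.302 for CDX2, so that order is not resolved.

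WWTR1, the co-activator that works with TEAD factors (chr1:119437270-119586289), stood at 57.6, 64.6 and 32.5 FPKM in MAT2A-inhibited morulae and 64.0, 54.5 and 45.8 FPKM in controls. MAT2A-inhibited morula 3 was the lowest, and there the assembled locus was shorter, at 145629 bases against 148969 to 149020 in the other 5. The means were 51.6 ± 16.9 FPKM in MAT2A-inhibited morulae and 54.8 ± 9.09 FPKM in controls (SD, n = 3 each, exact permutation p = 0.9).

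DAB2 (chr20:35018751-35079162 in 5 embryos) had the highest mean level. It stood at 69.3, 126.3 and 83.8 FPKM in MAT2A-inhibited morulae, against 152.2, 77.0 and 151.0 FPKM in controls. Controls 1 and 3 lay above all MAT2A-inhibited values, but control 2 lay below 2 of them. The means were 93.2 ± 29.6 against 126.7 ± 43.1 FPKM, a ratio of 0.735 (SD, n = 3 each, exact permutation p = 0.3). In control 3 the assembled locus ran on to 35256360, past the neighbouring gene C9 and into FYB. In 4 of the 6 embryos, control 3 not among them, the FPKM of DAB2 lay outside its own deposited bounds, and the midpoint of the bounds was lower there. By midpoints DAB2 stood at 70.0, 108.5 and 78.9 FPKM in MAT2A-inhibited morulae, against 122.0, 64.8 and 152.2 FPKM in controls, so that control 2 became the lowest of the 6 embryos and control 3 the highest.

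Embryos of 1 group differed from each other, by their SD on the log2 scale, more than the group means did for each of the 6 tested members. MAT2A-inhibited morula 2 was the lowest for CDX2 and the next to lowest for GATA2, yet it was the highest for TFAP2C, TFAP2A and WWTR1. Control 3 was the highest of the 6 embryos for CDX2, GATA2 and GATA3 alike, and control 2 was the lowest for GATA2 and GATA3 and the next to lowest for CDX2. Low CDX2 and GATA2 thus occurred in 1 embryo of each group.

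**Figure D2:**
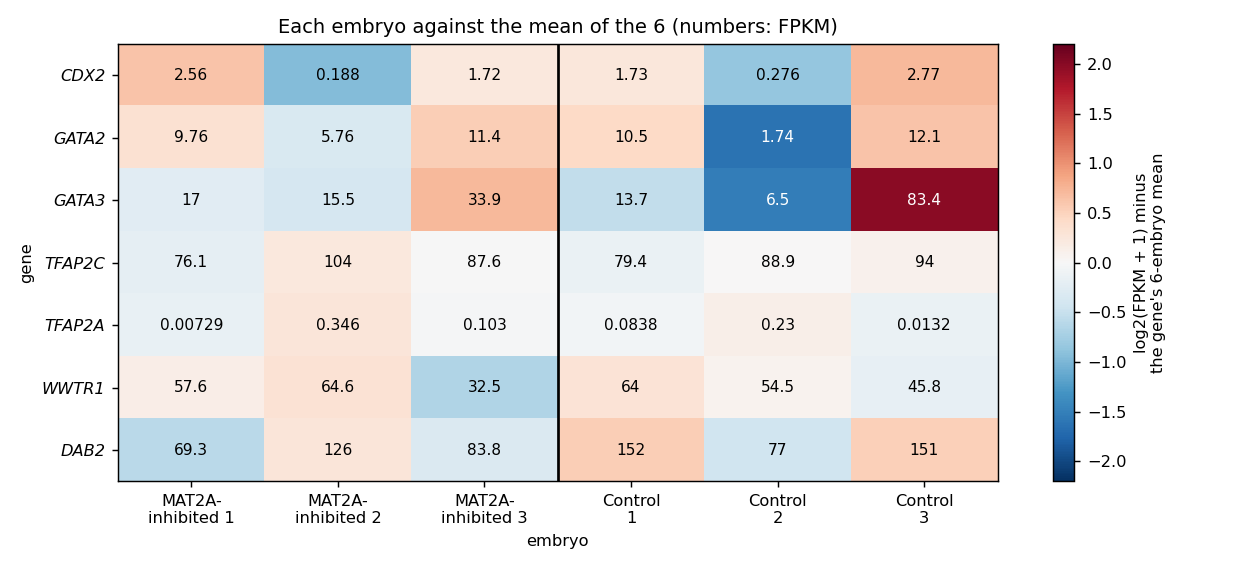
Colour gives log2(FPKM + 1) in each embryo minus the gene's mean over the 6 embryos (blue below, red above), and the numbers are FPKM. Columns are the 3 MAT2A-inhibited and the 3 control morulae. Control 3 is red for CDX2, GATA2 and GATA3, while control 2 and MAT2A-inhibited morula 2 are blue for these 3 genes. TFAP2C is pale throughout.

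The spread between embryos of the same group was set beside that of all 7319 tested genes, on the log2(FPKM + 1) scale. The median within-group SD of all tested genes was 0.40, and the 90th percentile was 0.89. GATA3 had a within-group SD of 1.34 and GATA2 of 0.95, larger than in 97.3% and 91.6% of tested genes. CDX2 had 0.81, DAB2 0.50 and WWTR1 0.40, while TFAP2C had 0.18, larger than in only 9.33% of tested genes. Within-group SD was above the median of all genes for 5 of the 6 tested members.

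**Figure D3:**
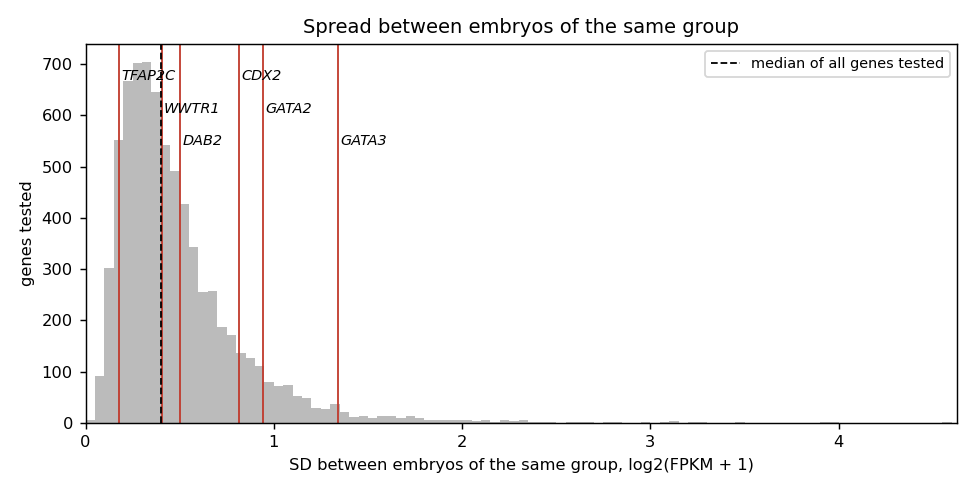
Histogram of the within-group SD of log2(FPKM + 1) for the 7319 tested genes, with red lines for the 6 tested members and a dashed line for the median of 0.40. TFAP2C lies at the low end at 0.18 and GATA3 in the upper tail at 1.34.

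The comparison of MAT2A-inhibited with control morulae asks whether these transcripts differed after FIDAS-5. The data used here hold no measure of S-adenosylmethionine. None of the 6 tested members passed limma with Benjamini-Hochberg adjustment at 0.05, where 3 of 7319 genes, or 0.041%, were called (0.0273% as higher and 0.0137% as lower in MAT2A-inhibited morulae). None of the 6 had an unadjusted limma p under 0.05 either, where 6.64% of all tested genes did. The groups overlapped for each of the 7 members, while 13.4% of the tested genes had groups that did not overlap. Differences below are MAT2A-inhibited minus control, in units of log2(FPKM + 1), a scale that compresses changes of low genes.

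Of the 6, DAB2 had the largest difference relative to its SE, with a log2 difference of -0.42 ± 0.34 (SE, limma adjusted p = 0.815). Its 95% interval ran from -1.22 to 0.38. GATA2 had a log2 difference of 0.37, with an interval from -1.05 to 1.80 (limma adjusted p = 0.896). WWTR1 had a log2 difference of -0.13, with an interval from -0.84 to 0.58 (limma adjusted p = 0.923).

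CDX2, TFAP2C and GATA3 had log2 differences close to 0. CDX2 was at -0.06, with an interval from -1.36 to 1.23 (limma adjusted p = 0.982). TFAP2C was at 0.02, with the narrowest interval, from -0.46 to 0.50 (limma adjusted p = 0.985), and its sign turned with median-of-ratios scaling (-0.03). GATA3 was at 0.05, with the widest interval, from -1.87 to 1.97 (limma adjusted p = 0.991), and its sign turned with quantile normalization (-0.02). For TFAP2C the interval covered folds between 0.727 and 1.42. For GATA3 it covered folds between 0.274 and 3.92, so changes of GATA3 within that wide range are not excluded. TFAP2A, fitted only when no filter on low values was used, had a log2 difference of 0.05 (limma unadjusted p = 0.735).

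**Figure D4:**
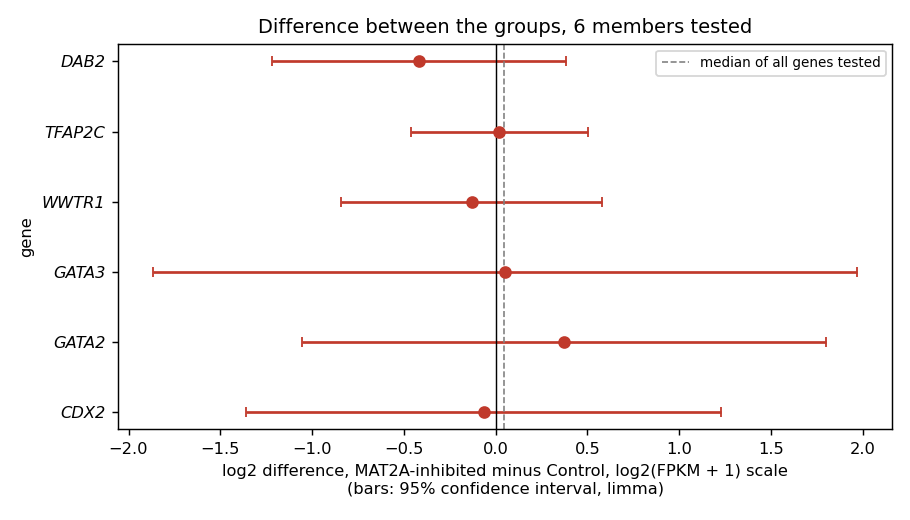
Log2 difference of MAT2A-inhibited minus control morulae on the log2(FPKM + 1) scale for the 6 tested members, with 95% confidence intervals from limma. The dashed line is the median of all 7319 tested genes, 0.04. Every interval includes 0, and the interval of GATA3 is the widest.

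The sign of most of these small differences rested on single embryos. Only DAB2 kept its sign when each library was left out in turn, between -0.74 and -0.23. Without control 2 it stood at -0.74 (limma unadjusted p = 0.0418, adjusted p = 0.795, with adjusted p of 0.748 to 0.999 over all alternatives). CDX2 stood at 0.40 without MAT2A-inhibited morula 2, at 0.27 without control 3 and at 0.04 without control 1. GATA2 stood at -0.35 without control 2. GATA3 stood at -0.29 without MAT2A-inhibited morula 3, at -0.69 without control 2, at -0.21 without control 1 and at 1.05 without control 3. TFAP2C stood at -0.09 and -0.05 without MAT2A-inhibited morula 2 or control 1, and WWTR1 at 0.17 without MAT2A-inhibited morula 3. Without both libraries with Y-linked transcripts, which leaves 1 MAT2A-inhibited embryo, DAB2 stood at -0.80, GATA2 at 0.53, CDX2 at 0.59, GATA3 at -0.23, TFAP2C at -0.19 and WWTR1 at 0.08, and none passed limma after adjustment.

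Genes that act with the members were followed through 8 lists of 123 further symbols. A row was present in all tables for 96 of them, and 69 were tested. None of the 69 passed limma after adjustment over all tested genes, and 2 had an unadjusted limma p under 0.05. The groups did not overlap for 7 of the 69, or 10.1%, against 13.4% of all tested genes. The median log2 difference of all tested genes was 0.04.

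In the Hippo kinase arm, whose kinases keep YAP1 and WWTR1 out of the nucleus, 11 of 19 listed genes were tested and none passed. The median log2 difference was 0.27, with 7 above 0. TAOK1, a kinase that activates the Hippo kinases, stood at 2.60, 2.29 and 1.82 FPKM in MAT2A-inhibited morulae, against 3.01, 12.5 and 8.89 FPKM in controls. The groups did not overlap, with control 1 close to the MAT2A-inhibited values (log2 difference -1.33, limma adjusted p = 0.709). Its relative TAOK2 had the opposite direction, at 4.80, 1.30 and 1.58 FPKM in MAT2A-inhibited morulae and 1.14, 0.807 and 0.760 FPKM in controls. MOB1A, a co-activator of the LATS kinases, also did not overlap, at 24.1, 29.7 and 25.3 FPKM in MAT2A-inhibited morulae against 20.3, 22.3 and 19.4 FPKM in controls. PTPN14, a phosphatase that binds YAP1, had a log2 difference of 0.88.

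WWTR1 was the only tested gene on the list of TEAD factors and their partners. TEAD2, the TEAD factor with a row, stood at 1.26, 1.22 and 0.934 FPKM in MAT2A-inhibited morulae, against 0.769, 0.297 and 0.691 FPKM in controls, below the level needed for the test, and these groups did not overlap (exact permutation p = 0.1, the smallest possible with 3 against 3 embryos). Other listed genes below that level did not overlap either. HAND1 stood at 0, 0.332 and 0 FPKM in MAT2A-inhibited morulae, against 2.14, 0.356 and 1.18 FPKM in controls, so the groups nearly touched. CDX1 was near 0 throughout, at 0, 0 and 0.0378 FPKM against 0.192, 0.0826 and 0.0547 FPKM. GATM stood at 0.336, 0.614 and 2.05 FPKM in MAT2A-inhibited morulae, against 0.0170, 0 and 0.00802 FPKM in controls. The share of all genes below that level without overlap was not computed. TEAD3 and TEAD4 are not analysed here.

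Of 16 listed target genes of YAP1 and TEAD, 7 were tested and none passed, with a median log2 difference of 0.09. CTGF, a secreted matrix protein and common readout of YAP1 activity, stood at 11.2, 11.2 and 8.41 FPKM in MAT2A-inhibited morulae, against 12.5, 5.81 and 17.7 FPKM in controls. The 3 tested targets with the smallest p were F3, the initiator of coagulation, AJUBA, a LIM protein that restrains LATS kinases, and MYOF, a membrane repair protein, with log2 differences of 0.66, 0.36 and 0.67. MYOF stood at 18.5, 1.66 and 36.4 FPKM in MAT2A-inhibited morulae and at 4.72, 0.535 and 54.3 FPKM in controls. Its 2 lowest embryos were those with the lowest CDX2 and GATA2, and its highest was control 3.

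Of 14 polarity genes, which mark the outer cell surface upstream of YAP1, 9 were tested and none passed, with a median log2 difference of -0.03. PARD6B, a scaffold of the apical complex, had a log2 difference of -0.29, and PRKCI, its kinase, 0.37. MPP5 was listed at 0 FPKM in MAT2A-inhibited morula 1 and in controls 1 and 2 and at 11.0 to 13.6 FPKM in the other 3. Its rows carry the status OK, and whether a listed 0 means no transcript was not tested. EZR, an apical membrane linker, stood at 82.2, 60.0 and 133.0 FPKM in MAT2A-inhibited morulae and 129.6, 34.4 and 314.0 FPKM in controls, again with control 2 lowest and control 3 highest.

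Other transcription factors of the trophectoderm were tested for 6 of 19 symbols, and none passed (median log2 difference 0.13). KLF5, a Kruppel-like factor needed for both lineages of the mouse blastocyst, stood at 134.3, 100.7 and 155.9 FPKM in MAT2A-inhibited morulae, against 111.6, 78.2 and 141.8 FPKM in controls. ETS2, an ETS family factor, had a log2 difference of 0.58. EOMES, a T-box factor of the mouse trophectoderm, was listed at 0 FPKM in every library.

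Of 13 cofactors of GATA and AP-2 proteins, 7 were tested and none passed, with 6 above 0 and a median log2 difference of 0.24. LMO4 and LMO2, LIM-domain adaptors, had log2 differences of 0.55 and 0.71. KCTD1, an inhibitor of AP-2 factors, had 0.44, and CITED2, their co-activator, stood at 127.4 to 181.8 FPKM in MAT2A-inhibited morulae and 116.5 to 149.7 FPKM in controls.

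The list of structural and transport genes of the trophectoderm gave 14 tested genes of 18, with none past the threshold and a median log2 difference of 0.13. KRT7, a simple epithelial keratin, did not overlap between groups, at 18.6, 10.3 and 13.6 FPKM in MAT2A-inhibited morulae against 3.38, 4.63 and 8.30 FPKM in controls (log2 difference 1.27, limma adjusted p = 0.701). KRT8, the keratin partner of KRT18, stood at 38.7, 109.5 and 229.9 FPKM in MAT2A-inhibited morulae and at 81.4, 4.49 and 400.5 FPKM in controls. Control 2 and control 3 were the extremes for KRT8, as they were for GATA3. ATP1B3, a sodium pump subunit, and SLC2A3, a glucose carrier, had log2 differences of -0.21 and 0.32.

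Among endocytosis genes that work with DAB2, 15 of 22 were tested and none passed, with a median log2 difference of 0.15. CLTC, the clathrin heavy chain, stood at 328.0, 78.0 and 71.2 FPKM in MAT2A-inhibited morulae, against 63.3, 55.7 and 31.8 FPKM in controls. The groups did not overlap, and MAT2A-inhibited morula 1 lay far above the rest (log2 difference 1.32, limma adjusted p = 0.746). DNM2, which cuts coated vesicles free, and EPN1, an adaptor, did not overlap either, with log2 differences of 0.49 and 0.48. CLTA, a clathrin light chain, was at 513.8 to 695.0 FPKM over the 6 embryos, with a log2 difference of -0.07. CUBN, an endocytic receptor, did not exceed 0.495 FPKM in any library.

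**Figure D5:**
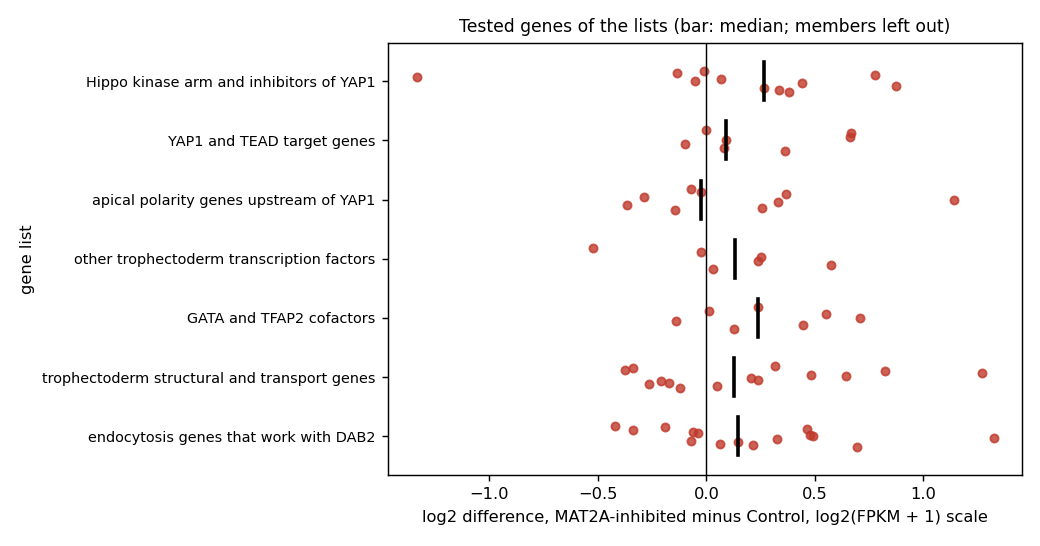
Log2 difference (MAT2A-inhibited minus control, log2(FPKM + 1) scale) for each tested gene of 7 lists, 1 point per gene, with a black bar for the list's median. Medians lie between -0.03 and 0.27. TAOK1, at -1.33, lies farthest to the left, and CLTC, at 1.32, farthest to the right.

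The genes whose levels followed each member most closely over the 6 embryos were found among all tested genes, with Pearson's r of log2(FPKM + 1) as the measure of likeness. With 6 embryos many genes reach a high r: 139 genes were at 0.9 or more with GATA3 and 170 with GATA2, of 7319, so the closest genes are given as a description. For GATA3 they were LRRC8D, ANAPC11 and CD38 (r of 0.996, 0.987 and 0.986). CD38 stood at 52.8, 49.6 and 74.6 FPKM in MAT2A-inhibited morulae, against 44.3, 33.7 and 93.2 FPKM in controls. For GATA2 they were ADA, LYN and CIRBP (0.994, 0.993 and 0.988), and for CDX2 they included AIFM1 and ALAD (0.990 and 0.989).

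The other members had fewer close genes. DAB2 was followed most closely by EBPL, HAGH and FAM169A (0.995, 0.984 and 0.983), TFAP2C by MRPL33, YWHAB and CHTF18 (0.994, 0.984 and 0.964), and WWTR1 by ALAS1, GCNT1 and G2E3 (0.994, 0.970 and 0.967). All r values share the same 6 libraries. GCNT1 stood at 113.4, 103.0 and 17.2 FPKM in MAT2A-inhibited morulae and 153.5, 93.3 and 38.5 FPKM in controls, with MAT2A-inhibited morula 3 lowest, as for WWTR1.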

How the data were processed

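The submitters' processing notes name the build bosTau8, TopHat2 2.0.14 and Cufflinks 2.2.1. How they were run, and with which annotation, is not given in the sources used here. Each deposited table gives, per the file headers, the authors' FPKM of every gene of 1 library with its confidence bounds. No scaling between libraries is recorded. Each library was assembled on its own, so loci differ in extent. File starts count from 0 and are printed 1-based. Rows of 1 symbol were summed. Symbols in all 6 tables were kept, without 110 that share a merged locus or lack the status OK. Depth was read from the whole-fragment steps of the bounds of short unannotated loci (99.8% to 99.9% whole within 0.05). Fragment counts per gene were not recovered, so errors are spreads between embryos.

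The gene test was limma 3.58.1 (R 4.3.3), two-sided, applied to log2(FPKM + 1) with a trended prior variance. It covered the 7319 genes that reached 1 FPKM in 3 or more libraries, with Benjamini-Hochberg adjustment and a threshold of 0.05. This fit was tested on simulated data with independent normal noise, which hold no deviation shared between embryos. No statement here rests on that test. Single levels were compared with the exact two-sided permutation test over 3 against 3 embryos, in 7 comparisons of members, whose smallest p is 0.1. The same test was computed for the 96 list genes with a row and for the markers. Of these only the p of TEAD2 is printed. The members and lists were chosen with earlier results of these data known. The named genes are all members, the 3 genes of each list with the smallest p, and the 3 closest to each tested member. Some genes that these rules select are not reported here. CTGF, MOB1A, KRT8, EZR, EOMES, CITED2, CLTA, CUBN, TEAD2, HAND1, CDX1, GATM and the neighbours of DAB2 were named after their values were seen. Sequences are not printed, since none are in the sources used here. Alternatives are another pseudocount, filter, scaling, row choice, trend, block and left-out libraries.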

Additional observations from a re-analysis of the deposited data

How the results depend on the processing

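No member and no gene of the 8 lists was called under any of the 17 alternatives. The count over all tested genes, 3, was 1 with no filter on low values, 1 with a mean of at least 5 FPKM, 1 with the replicate block, 0 without the 2 libraries with Y-linked transcripts and 1 with the midpoint of the bounds, an alternative added after seeing the data. Leaving out each library in turn gave 0 to 8 calls: 0 when any 1 MAT2A-inhibited morula was left out (limma unadjusted p under 0.05 for 329 to 498 genes), 2 without control 1 and 8 without control 3. Without the libraries with Y-linked transcripts, 294 genes had an unadjusted p under 0.05. Deviations of same-numbered embryos correlated at 0.0456, 0.103 and 0.191 over all tested genes. The labels give no pairing, so the main fit did not pair the embryos. Different-numbered embryos were not compared, so a batch shared by number was not tested. From high to low, GATA2 and GATA3 ran in the order of replicates 3, 1, 2 in both groups. In both groups CDX2 was lowest in replicate 2, TFAP2C in replicate 1 and WWTR1 in replicate 3. DAB2 was lowest in MAT2A-inhibited morula 1 and, among controls, in control 2. The replicate block leaves the log2 differences as they are by its construction, and no member was called under it.

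DAB2 kept its sign under every alternative. Without the 2 libraries with Y-linked transcripts, which leaves 1 MAT2A-inhibited embryo assumed to vary like the controls, CDX2 was at 0.59, GATA3 at -0.23, TFAP2C at -0.19 and WWTR1 at 0.0829. GATA3 was at -0.0233 with quantile normalization. TFAP2C was at -0.0295 with median-of-ratios scaling and at -0.0124 with the midpoint of the bounds, and its difference in FPKM was then -1.31 and -0.165. Leaving out each library in turn gave ranges of -0.51 to 0.40 for CDX2, -0.35 to 0.78 for GATA2, -0.69 to 1.05 for GATA3, -0.0943 to 0.13 for TFAP2C, -0.32 to 0.17 for WWTR1 and -0.74 to -0.23 for DAB2. The causes of these turns were not tested. With a mean of at least 5 FPKM, CDX2 was not fitted. The deposited lower bound of TFAP2A was 0 in MAT2A-inhibited morula 1 and control 3, so its level there cannot be told from 0. The part of depth in this was not tested.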

Other observations

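Unannotated transcripts were assembled near 6 of the 7 members, and near GATA3, TFAP2C and CDX2 a common stretch was found in 5 or more libraries. Beyond the end of GATA3, a locus covering chr13:16005592-16005909 was present in each of the 6 libraries, 1027 to 2121 bases from the assembled gene and 318 to 2035 bases long. Beyond the end of TFAP2C, a locus covering chr13:59913894-59914134 was present in each of the 6 libraries, 370 to 1178 bases away. Beyond the end of CDX2, a locus covering chr12:32324145-32324473 was present in 5 of 6 libraries, 146 to 816 bases away, and no row covered it in MAT2A-inhibited morula 2, the embryo with the lowest CDX2. The strand of these loci is not recorded in the tables, and their FPKM values were not used.

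Unannotated loci within the span of WWTR1 numbered 0, 1 and 5 in MAT2A-inhibited morulae 1 to 3, and 3, 5 and 6 in controls 1 to 3. The span of TFAP2A and that of TFAP2C held none in any library.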
